A study of Mus musculus with 8 samples.

Results

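The aryl hydrocarbon receptor (AHR) and the nuclear receptors are transcription factors whose activity is set by small molecules. The 9 genes described here are *Ahr* itself, the AHR-induced genes *Ahrr*, *Tiparp* and *Cyp1b1*, and 5 nuclear receptor genes studied in T cells: *Rora*, *Rara*, *Rxra*, *Vdr* and *Nr3c1*. They were taken by gene symbol from the table of normalized counts, which had rows for 8 of the 9 among its 24303 genes. *Cyp1b1* was not analysed here. RNA-Seq was made from CD8 T cells of P14 mice, whose T cell receptor is a transgene that recognizes GP33, a peptide of lymphocytic choriomeningitis virus, on a C57BL/6 background. Splenic P14 cells were activated on plates coated with anti-CD3 and anti-CD28 for 2 days in medium with IL-2, cultured in vitro and sorted, with 2 libraries for each of 4 conditions. Acute-2d cells then had no peptide up to collection on day 19. Acute-7d cells were stimulated with GP33 up to day 7 and kept without peptide until day 19. T_Dysf cells were given GP33 up to day 19 and TGF-β1 from day 7. Effector cells were collected on day 7, and the labels do not give their peptide schedule. In a figure on PD-1 and Tim3 protein, the study names its day 7 Effector cells 7d-stim. T_Dysf therefore differed from both Acute conditions in continued peptide and in TGF-β1 at once, and the parts of these treatments in any difference cannot be told apart. Effector differed from every other condition in collection day as well, and the part of this in its comparisons cannot be told apart either.

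AHR is held in the cytoplasm by a chaperone complex until a ligand, such as a tryptophan metabolite or a dioxin, releases it to the nucleus, where it pairs with ARNT and binds GCGTG-containing elements. Its targets include its own inhibitors: *Ahrr* encodes a repressor that competes for ARNT, and *Tiparp* encodes an ADP-ribosyltransferase that lowers AHR activity. Nuclear receptors bind variants of the hexamer AGGTCA, or a related element in the case of steroid receptors. RXRα (*Rxra*) is the shared partner of the retinoic acid receptor RARα (*Rara*) and the vitamin D receptor (*Vdr*), RORα (*Rora*) binds alone and belongs to the circadian circuit, and *Nr3c1* encodes the glucocorticoid receptor, which restrains T cell activation.

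Promoter sequences from RefSeq (GRCm38.p6) were found for 7 of the 9 genes: *Ahrr*, *Tiparp*, *Cyp1b1*, *Rora*, *Rara*, *Rxra* and *Vdr*. Bases upstream of 3 start sites are shown, 5′ to 3′ on the strand of the gene. *Ahrr* and *Rxra* had the largest fitted differences of the measured genes, and *Tiparp* is the other measured AHR-induced gene of the 9. Capitals mark GCGTG or its reverse complement CACGC in *Ahrr* (chr13:74292332-74292581, minus strand) and *Tiparp* (chr3:65528197-65528409, plus strand), and AGGTCA or its reverse complement TGACCT in *Rxra* (chr2:27709042-27709291, plus strand, the second of its 2 start sites).
Ahrr: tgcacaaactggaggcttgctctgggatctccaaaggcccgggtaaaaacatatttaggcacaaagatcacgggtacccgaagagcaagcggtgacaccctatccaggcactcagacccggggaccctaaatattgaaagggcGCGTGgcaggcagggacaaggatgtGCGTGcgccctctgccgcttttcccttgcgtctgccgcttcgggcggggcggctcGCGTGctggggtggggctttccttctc
Tiparp: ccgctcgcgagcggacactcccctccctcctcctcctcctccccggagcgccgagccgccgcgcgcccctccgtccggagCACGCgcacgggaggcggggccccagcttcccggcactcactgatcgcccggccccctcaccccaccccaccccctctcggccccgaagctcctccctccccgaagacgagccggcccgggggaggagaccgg
Rxra: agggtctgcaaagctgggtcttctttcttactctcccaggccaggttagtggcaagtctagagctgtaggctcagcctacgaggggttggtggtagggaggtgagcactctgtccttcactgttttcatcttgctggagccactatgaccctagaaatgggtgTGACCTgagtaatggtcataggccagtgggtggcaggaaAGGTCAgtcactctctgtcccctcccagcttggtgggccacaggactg
The *Ahrr* sequence held 3 matches of the AHR core, starting 107, 82 and 27 bases before the start of transcription. *Tiparp* held 1, on the reverse strand at 170 bases, and its printed sequence ends where the GENCODE annotation begins its first exon. Both strands were searched in the 250 bases upstream of each of 32851 start sites, and 28.2% held at least 1 AHR core and 2.77% at least 3. *Rora*, *Vdr*, *Cyp1b1* and 1 of the 4 *Rara* start sites each held 1 core, and *Rxra* held none at either start site. The AGGTCA hexamer occurred 2 times at the second *Rxra* start site, at 87 and 48 bases, and not in the other sequences of these 7 genes. At least 1 such hexamer was present upstream of 14.02% of all start sites, and at least 2 upstream of 1.36%. These matches describe the letters of the sequence and not binding in these cells.

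Values are normalized counts, that is, reads per gene scaled by the authors between libraries with the median-ratio method. Differences were fitted with limma to log2(normalized count + 1) over all genes, and a gene was called where its fold change was at least 2 and its Benjamini-Hochberg adjusted p was under 0.05. With the most common small value of a library taken as 1 read, libraries held an estimated 19381799 to 24856512 reads on genes. On that scale, 3 reads correspond to 2.59 to 3.35 normalized counts. All 7 T cell markers were present, with a sum of 79381 to 95007 in the 6 libraries of the other conditions and 192372 to 194398 in T_Dysf. The 4 B cell, the 4 stromal and the 4 erythroid markers were each under 50 normalized counts. Of 3 plasma cell markers, *Jchain* (236 and 275) and *Sdc1* (113 and 148) stood above 50 in T_Dysf alone, and the sum of the list was 2422 to 2491 there against 1430 to 2195 elsewhere, while *Xbp1* was at 2072 and 2068 in T_Dysf and 1406 to 2181 in the other conditions. The natural killer markers summed to 1038 to 1497 in Acute-7d and 249 to 567 in the other conditions, through *Klrb1c* (1005 and 1384 in Acute-7d). Per the study's methods, the chronically stimulated cells had been sorted as viable CD8 T cells. The part of these markers in the differences below was not tested. Both Effector libraries and Acute-7d replicate 1 carry the prefix RESUB in their names, and these 3 had *Xist*, expressed in female cells, at 53.5 to 115 normalized counts against 21871 to 30427 in the other 5. *Ddx3y*, on the Y chromosome, was at 1334 to 2161 in the 3 and at 2.59 or less in the 5. All T_Dysf and Acute-2d libraries fall on 1 side of this split and both Effector libraries on the other. Condition and split therefore cannot be told apart where Effector is compared with T_Dysf or Acute-2d. T_Dysf against Acute-2d does not cross the split, and Acute-7d has 1 library on each side. A term for the prefix, used below, is set by the difference between those 2 libraries alone.

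**Figure D1:**
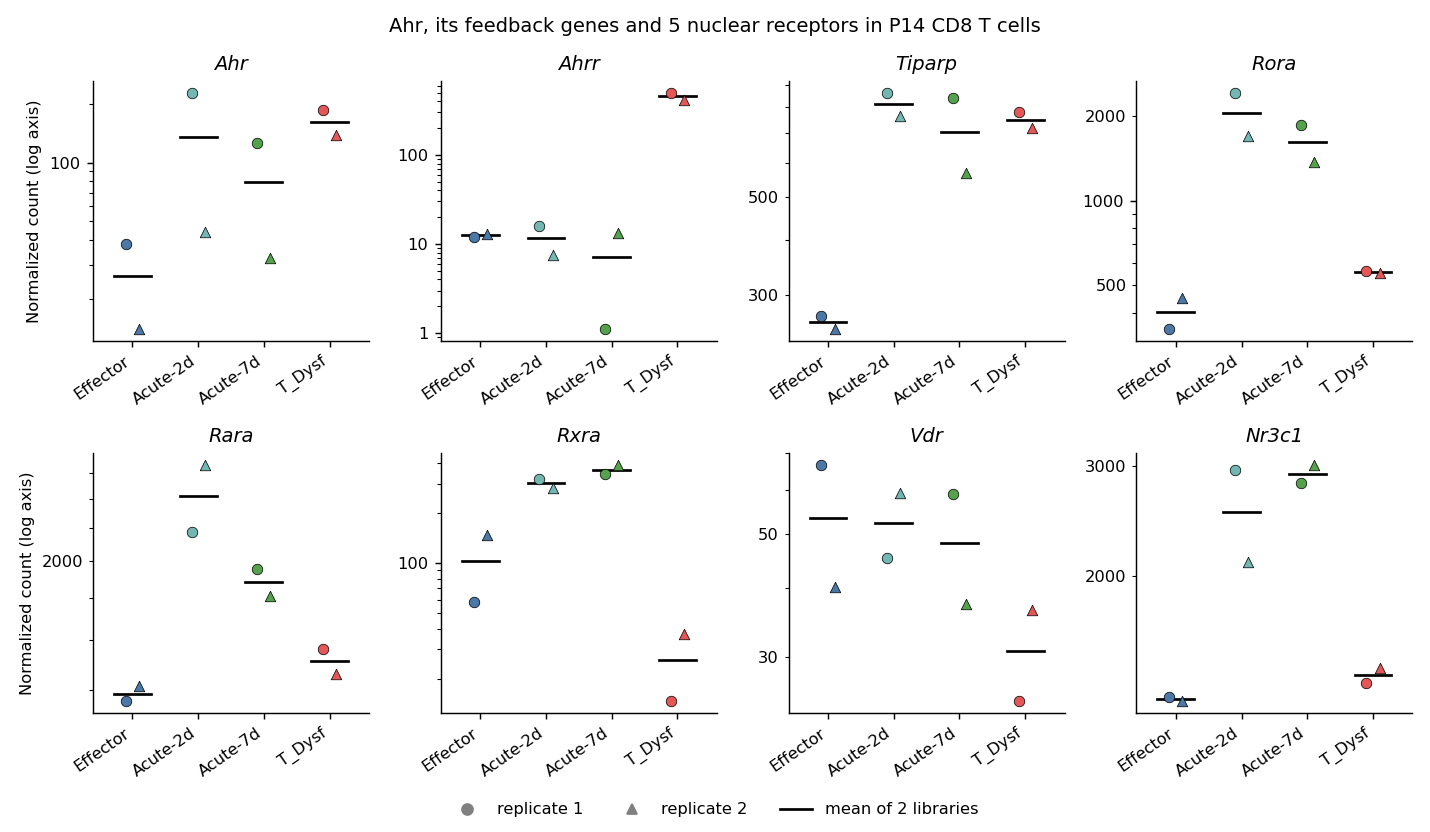
Normalized counts of the 8 measured genes (vertical log axis, scaled per gene) in the 4 conditions (horizontal axis), with 1 point per library and a line at the mean of 2 libraries. *Ahrr* stands at 416 and 497 in T_Dysf and at 15.8 or less elsewhere, while *Rxra* is lowest in T_Dysf at 14.7 and 37.4.

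Across the conditions, the AHR repressor gene *Ahrr* rose in T_Dysf and *Rora*, *Rxra* and *Nr3c1* fell in T_Dysf against Acute-7d, while *Tiparp* was lowest in Effector. In counts, 1 of the 8 measured genes was called higher and 3 lower in T_Dysf against Acute-7d, where 2.54% and 3.03% of all genes were called higher and lower. Against Acute-2d, 1 was higher and 2 lower beside 3.14% and 4.21% of all genes. Against Effector, 2 were higher and 0 lower beside 4.47% and 4.75%. Effector against Acute-7d gave 0 higher and 3 lower (4.18% and 3.88% of all genes), and against Acute-2d also 0 higher and 3 lower (4.31% and 4.48%). Acute-7d and Acute-2d, which differed in peptide before day 7, gave 0 called of 8 in limma beside 0.0782% higher and 0.0905% lower over all genes. At an unadjusted p under 0.05 this pair gave 1 of 8, *Rara*, with a log2 fold change of -0.44. The genes that fell in T_Dysf against Acute-7d and those that fell in Effector against Acute-7d share the Acute-7d libraries, so the 2 sets are not independent.

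The AHR repressor gene *Ahrr* was the most changed of these genes. It was at 497 and 416 normalized counts in T_Dysf, at 11.9 and 13.0 in Effector, at 15.8 and 7.56 in Acute-2d, and at 1.12 and 13.1 in Acute-7d, where the lower value is a single read. All 6 libraries outside T_Dysf lay below both T_Dysf libraries, with no overlap. The log2 fold change of T_Dysf was 6.38 over Acute-7d (SE 0.97, adjusted p = 0.0258), 5.25 over Acute-2d (SE 0.97, adjusted p = 0.0336) and 5.08 over Effector (SE 0.97, adjusted p = 0.0315). The direction held in all 20 other settings tried. Several of these cannot change it: filters, thresholds, the replicate block, a fit of 2 conditions alone and omission of libraries outside the comparison. Each of the 3 calls was lost in some settings. Leaving out an Acute-7d library gave log2 fold changes over Acute-7d of 5.01 without Acute-7d replicate 1, the library with a single read, and 7.75 without replicate 2. The adjusted p there lay between 0.0571 and 0.132 without either T_Dysf or either Acute-2d library, and was 0.0994 in a fit of these 2 conditions alone. A pseudocount of 0.1 ended the calls over Acute-2d (adjusted p = 0.0554) and Effector (adjusted p = 0.0514). Without either Effector library, the calls over Acute-2d and Effector were lost too, as they were without either T_Dysf or either Acute-2d library, at 4.76 to 5.74 and 4.96 to 5.21. With a term for the RESUB prefix, the fit over Effector gave 2.34 (adjusted p = 0.250), where the term subtracts the gap between the Acute-7d libraries, 1 of which has a single *Ahrr* read. *Ahrr* lies on chromosome 13 (74211118 to 74292331, minus strand, GRCm38).

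*Ahr*, on chromosome 12 (35497974 to 35535038, minus strand), was not called in any comparison. It was at 186 and 138 normalized counts in T_Dysf cells, 126 and 32.3 in Acute-7d, 227 and 44.3 in Acute-2d, and 38.4 and 14.04 in Effector. Replicates of the Acute conditions were far apart, and each neighbour in the order of the means (Effector, Acute-7d, Acute-2d, T_Dysf) overlapped with the next. T_Dysf and Effector did not overlap, and T_Dysf was higher by a log2 fold change of 2.73 (95% interval -0.08 to 5.53, adjusted p = 0.166). T_Dysf over Acute-7d gave 1.31 (-1.50 to 4.11), so an increase of several-fold and a decrease are both within the interval. A lincRNA gene of the opposite strand, *Gm48236*, shares 127 exon bases with *Ahr*, and whether counting used the strand is not given in the sources used here.

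The balance between the receptor and its repressor differed by condition. Per kb of exon, *Ahrr* stood at 1.75 and 1.97 times *Ahr* in the T_Dysf libraries. In the other 6 libraries this ratio was 0.00578 to 0.606, with its highest value in Effector replicate 2 and its lowest, which rests on 1 read of *Ahrr*, in Acute-7d replicate 1. The levels per kb were 52.6 and 44.1 for *Ahrr* and 30.1 and 22.4 for *Ahr* in T_Dysf.

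*Tiparp*, the other inhibitor gene, followed a different order. Its values were 780 and 719 normalized counts in T_Dysf cells, 838 and 568 in Acute-7d, 863 and 764 in Acute-2d, and 270 and 252 in Effector. The Effector libraries lay below the other 6, which overlapped each other. *Tiparp* was higher in T_Dysf than in Effector by a log2 fold change of 1.52 (SE 0.20, adjusted p = 0.0134), and lower in Effector than in Acute-7d by -1.40 (adjusted p = 0.0207) and than in Acute-2d by -1.64 (adjusted p = 0.0143). T_Dysf and Acute-7d differed by 0.12 (95% interval -0.39 to 0.63). The call over Effector held in all 12 settings that kept every library and was lost without Effector replicate 2 (or T_Dysf replicate 1), with adjusted p of 0.0602 to 0.0803 at log2 fold changes of 1.46 to 1.47. The Effector calls against the Acute conditions were lost without Effector replicate 2, also without either T_Dysf library against Acute-7d (-1.40 to -1.35) and without either Acute-2d library against Acute-2d (-1.72 to -1.55). Both were lost also in a fit of the 2 conditions compared alone. The antisense pseudogene *4931440P22Rik*, at 12.2 to 73.0 normalized counts, shares 223 exon bases with *Tiparp* (chromosome 3, 65528410 to 65555518).

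T_Dysf had 2.54%, 3.14% and 4.47% of all genes called higher against Acute-7d, Acute-2d and Effector. Among 6 genes for AHR partners and chaperones, *Arnt2* alone was called. This relative of *Arnt* also forms dimers with AHR and is best known from neurons. It was at 344 and 457 normalized counts in T_Dysf and between 0.914 and 14.1 in the other 6 libraries, with log2 fold changes of 5.20, 6.57 and 6.87 over Acute-7d, Acute-2d and Effector (adjusted p = 0.0397, 0.0187 and 0.0152). *Arnt*, the general partner, was at 859 to 1247 in all 8 libraries and differed between T_Dysf and Acute-7d by -0.22 (adjusted p = 0.409). *Arnt2* (chromosome 7, 84246278 to 84410176) shares 214 exon bases with the antisense gene *Gm30873*. Its calls were not checked in the other settings tried for *Ahrr*.

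**Figure D2:**
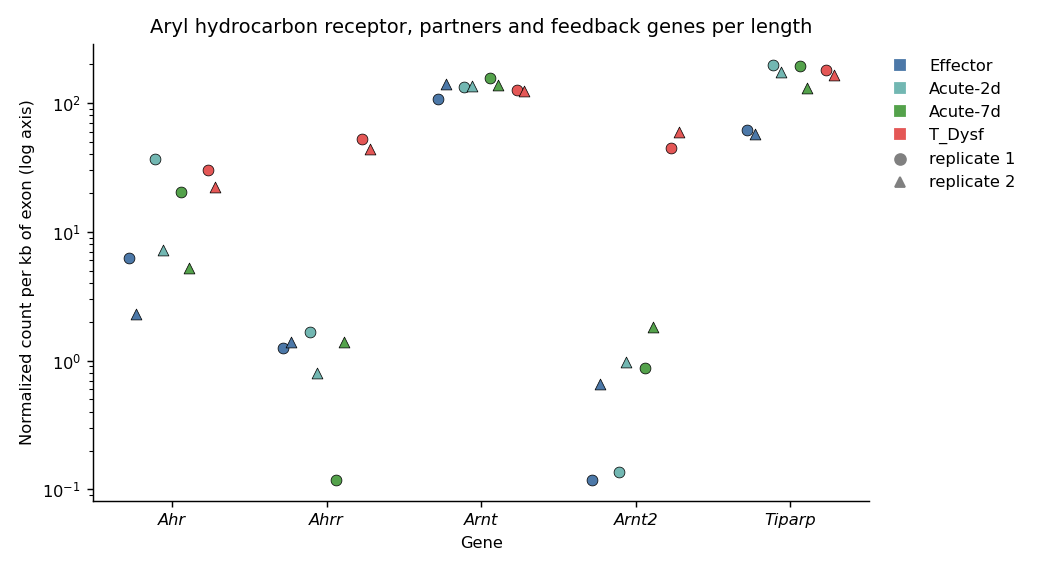
Normalized count per kb of exon (vertical log axis) of *Ahr*, *Ahrr*, *Arnt*, *Arnt2* and *Tiparp* (horizontal axis), with 1 point per library coloured by condition. *Ahrr* and *Arnt2* lie above *Ahr* in both T_Dysf libraries and below it in the other 6, while *Arnt* stays between 107 and 156 in every library.

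Classical AHR target genes outside the feedback loop were barely covered. Of 5 listed, only *Nqo1* and *Ugt1a6a*, both of detoxification, had rows. Neither was called, on means of 11.9 and 12.1 normalized counts over all libraries. At an unadjusted p under 0.05 the same limma fit gave 2 of 2 in Effector against Acute-7d and 1 of 2 against Acute-2d, before any fold limit. It gave 0 in each T_Dysf comparison. *Nqo1* was at 10.4 and 12.5 normalized counts in T_Dysf cells, 5.58 and 3.03 in Acute-7d, and 10.1 and 47.2 in Effector. *Ugt1a6a* was at 11.7 and 21.1 in T_Dysf, 0 and 6.12 in Acute-7d, and 13.4 and 35.3 in Effector, so that both were listed highest in Effector replicate 2. Of 9 measured genes for tryptophan and kynurenine handling, some of which make or import AHR ligands, *Afmid* alone was called higher in T_Dysf. It was called against all 3 conditions, beside 2.54%, 3.14% and 4.47% of all genes against Acute-7d, Acute-2d and Effector. *Afmid*, which turns formylkynurenine into kynurenine, was at 1233 and 1307 in T_Dysf and between 352 and 610 elsewhere, with log2 fold changes of 1.11, 1.14 and 1.53 over Acute-7d, Acute-2d and Effector (adjusted p = 0.0438, 0.0338 and 0.0151). The amino acid transporter gene *Slc7a5* was instead highest in Effector at 5911 and 9322, against 1727 to 2641 in the other 6 libraries, a log2 fold change of 1.65 over Acute-7d (adjusted p = 0.0212). *Kmo*, for kynurenine 3-monooxygenase, was called higher in Effector (64.0 and 57.2) than in Acute-7d (3.35 and 1.01), with adjusted p = 0.0398, and lay at 19.0 and 15.1 in T_Dysf.

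*Rxra* had the largest decrease of the 5 nuclear receptor genes. It was at 14.7 and 37.4 normalized counts in T_Dysf, 57.6 and 146 in Effector, 321 and 284 in Acute-2d, and 340 and 389 in Acute-7d. No condition overlapped with its neighbour in this order. T_Dysf fell by 3.89 on the log2 scale against Acute-7d (SE 0.61, adjusted p = 0.0276) and by 3.63 against Acute-2d (SE 0.61, adjusted p = 0.0263). Against Effector the log2 fold change was -1.92 (95% interval -3.49 to -0.35, adjusted p = 0.103), and Effector against Acute-7d gave -1.97 (adjusted p = 0.0997). Both T_Dysf calls were lost without T_Dysf replicate 1 and without any of the 4 Acute libraries, with adjusted p of 0.0627 to 0.124 at log2 fold changes of -3.99 to -2.98. They were lost also with a term for the RESUB prefix, at -3.99 against Acute-7d and -3.63 against Acute-2d. A fit of the 2 conditions compared alone ended both calls too. *Rxra* lies on chromosome 2 (27676440 to 27762957, plus strand). *Rxrb*, which encodes a second RXR, was the more abundant per kb of exon, at 433 to 832 against 2.69 to 71.2 for *Rxra*, and differed between T_Dysf and Acute-7d by -0.42 (adjusted p = 0.116).

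*Rara*, for a receptor of all-trans retinoic acid, varied less. Its values were 1455 and 1326 in T_Dysf, 1944 and 1762 in Acute-7d, 2224 and 2833 in Acute-2d, and 1203 and 1269 in Effector. The conditions did not overlap, in the order Effector, T_Dysf, Acute-7d and Acute-2d. It was called lower in Effector than in Acute-2d (log2 fold change -1.02, SE 0.13, adjusted p = 0.0162). This call was lost in a fit of these 2 conditions alone. T_Dysf against Acute-2d gave -0.85 (adjusted p = 0.0226), under the fold limit, and against Acute-7d -0.41 (adjusted p = 0.137). The Effector call was lost without either Effector library or Acute-2d replicate 2, at -1.06 to -0.85, and with a term for the RESUB prefix (-1.16, adjusted p = 0.138). Of 9 measured genes of retinoid handling and response, only *Stra6*, a vitamin A transporter gene, was called. It was at 3.66 and 2.01 normalized counts in Effector and 0 in the other 6 libraries. These Effector values are near the level of 3 reads, so the call rests on few reads. Of all genes, 4.18% and 4.31% were called higher in Effector against Acute-7d and Acute-2d, and 4.75% lower in T_Dysf against Effector. *Rara* lies on chromosome 11 (98927818 to 98974942, plus strand).

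*Vdr* was low in every library and was not called. It was at 25.0 and 36.5 normalized counts in T_Dysf cells, 59.1 and 37.4 in Acute-7d, 45.3 and 59.4 in Acute-2d, and 66.7 and 40.1 in Effector. T_Dysf lay below the other 6 libraries, the nearest of which was at 37.4. Its log2 fold changes were -0.62 (95% interval -1.70 to 0.46) against Acute-7d, -0.76 (-1.84 to 0.32) against Acute-2d and -0.76 (-1.84 to 0.32) against Effector. *Cyp27b1*, the enzyme that makes active vitamin D, was listed at 0 in both T_Dysf libraries, at 1.83 and 5.02 in Effector, and at 8.64 to 17.9 in the 4 Acute libraries. It was called lower in T_Dysf against both Acute conditions (adjusted p = 0.0242 and 0.0163). *Vdr* lies on chromosome 15 (97854425 to 97910630, minus strand).

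*Rora*, which activates clock genes and supports several lymphocyte lineages, was high in both rested conditions and low in the others. It was at 2428 and 1697 normalized counts in Acute-2d, 1860 and 1374 in Acute-7d, 565 and 554 in T_Dysf, and 350 and 451 in Effector. The Acute conditions overlapped each other, and all 4 of their libraries exceeded all 4 others. T_Dysf fell by 1.51 on the log2 scale against Acute-7d (SE 0.25, adjusted p = 0.0310) and by 1.86 against Acute-2d (SE 0.25, adjusted p = 0.0152). Effector fell by 2.01 against Acute-7d (adjusted p = 0.0170) and by 2.35 against Acute-2d (adjusted p = 0.0117). T_Dysf against Effector gave 0.49 (95% interval -0.15 to 1.13), not called. The fall of Effector against Acute-2d was called with each of the 8 libraries left out in turn and was lost with a term for the RESUB prefix (-2.79). The T_Dysf calls were lost without either T_Dysf library, without either Acute-7d library against Acute-7d (-1.73 to -1.30 over these fits) and without Acute-2d replicate 1 against Acute-2d (-1.87 to -1.60). The term for the RESUB prefix also ended the call against Acute-7d, at -1.30. Effector against Acute-7d was lost without Acute-7d replicate 1 or either T_Dysf library, at -2.01 to -1.79. A fit of the 2 conditions compared alone ended each of the *Rora* calls. *Rora* spans chromosome 9 from 68653786 to 69388246 on the plus strand and shares 82 exon bases with the antisense gene *Gm15511*.

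Of 17 clock genes, with which *Rora* acts, T_Dysf had 2 called lower against Acute-7d, 3 lower against Acute-2d, and 3 higher and 2 lower against Effector (over all genes 3.03%, 4.21%, 4.47% and 4.75%, in this order). *Npas2*, a paralog of the core clock activator *Clock*, was at 0.863 and 2.67 normalized counts in T_Dysf cells, 49.1 and 39.4 in Acute-7d, 233 and 196 in Acute-2d, and 21.02 and 75.2 in Effector. It fell in T_Dysf by 4.10, 6.36 and 3.97 on the log2 scale against Acute-7d, Acute-2d and Effector (adjusted p = 0.0342, 0.00986 and 0.0265). *Hlf*, a clock-controlled transcription factor, was called lower in T_Dysf against the same 3 conditions, at 4.32 and 5.34 against 22.3 to 40.2 elsewhere. Effector, collected on day 7 rather than day 19, had 6 clock genes lower than Acute-7d and 7 lower than Acute-2d, beside 3.88% and 4.48% of all genes. One of them was *Per3*, a clock repressor, at 30.2 and 34.1 in Effector against 157 and 157 in Acute-7d and 198 and 222 in T_Dysf. *Arntl*, the core activator, was called lower in Effector (104 and 112) than in Acute-7d (292 and 233), with a log2 fold change of -1.26 and adjusted p = 0.0154.

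*Nr3c1* was at 1352 and 1426 normalized counts in T_Dysf, 1281 and 1264 in Effector, 2814 and 3011 in Acute-7d, and 2951 and 2109 in Acute-2d. As for *Rora*, the 4 Acute libraries all exceeded the 4 others. T_Dysf fell by 1.07 on the log2 scale against Acute-7d (SE 0.16, adjusted p = 0.0263) and by 0.84 against Acute-2d (adjusted p = 0.0381), the latter under the fold limit. Effector fell by 1.19 against Acute-7d (adjusted p = 0.0197) and gave -0.97 against Acute-2d (adjusted p = 0.0253), again under the limit. T_Dysf against Effector gave 0.13 (95% interval -0.30 to 0.55). Both calls were lost without either Acute-7d or either T_Dysf library and with a term for the RESUB prefix, at -1.24 to -1.02, and that of Effector also without Effector replicate 2. *Nr3c1* lies on chromosome 18 (39410545 to 39519421, minus strand).

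Of 10 targets and chaperones of the glucocorticoid receptor, none was called between T_Dysf and either Acute condition. Of all genes, 2.54% were called higher and 3.03% lower against Acute-7d, and 3.14% and 4.21% against Acute-2d. The median log2 fold change of the 10 against Acute-7d was 0.05 beside 0 over all genes. At an unadjusted p under 0.05 the same limma fit gave 4 of these 10 against Acute-7d and 6 against Acute-2d, before any fold limit. *Tsc22d3*, which encodes the glucocorticoid-induced leucine zipper, was at 357 and 262 in T_Dysf, 514 and 615 in Acute-7d, 780 and 1051 in Acute-2d, and 497 and 283 in Effector, and was not called. *Sgk1*, a kinase gene that the receptor induces, was at 736 and 693 in T_Dysf, 2699 and 1776 in Acute-7d, 1485 and 1552 in Acute-2d, and 1193 and 568 in Effector, with a log2 fold change of -1.62 in T_Dysf against Acute-7d (adjusted p = 0.0772). *Fkbp5*, a chaperone gene that the receptor induces, was instead highest in Effector at 3894 and 5113, against 1313 and 1418 in Acute-7d and 2087 and 2226 in T_Dysf. It was called higher in Effector than in Acute-7d (log2 fold change 1.71, adjusted p = 0.0172) and lower in T_Dysf than in Effector (-1.05, adjusted p = 0.0375). *Dusp1*, a phosphatase gene, was lowest in Effector, at 302 and 209, with 914 and 907 in T_Dysf and 1146 to 2148 in the 4 Acute libraries, a log2 fold change of 1.86 for T_Dysf over Effector (adjusted p = 0.0303).

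**Figure D3:**
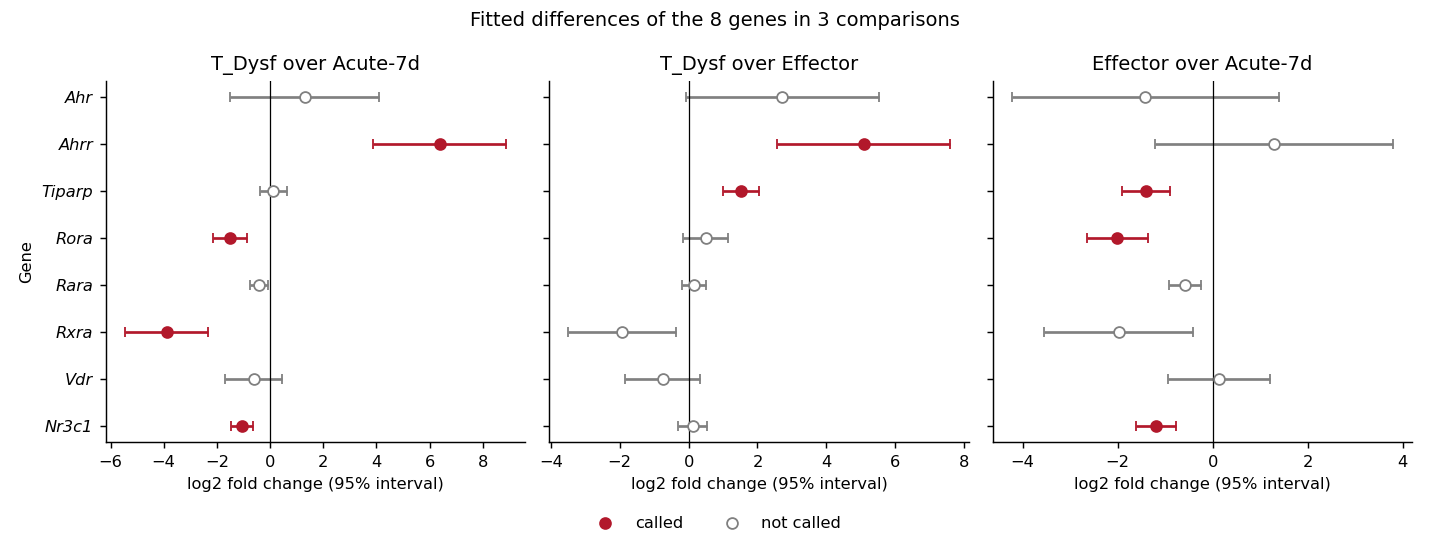
Fitted log2 fold change (horizontal axis) of the 8 measured genes (vertical axis) in 3 comparisons, with bars for the 95% interval and filled points for called genes. T_Dysf over Acute-7d has *Ahrr* at 6.38 on the right and *Rora*, *Rxra* and *Nr3c1* on the left, while Effector over Acute-7d has *Tiparp*, *Rora* and *Nr3c1* on the left.

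The 5 nuclear receptors above belong to a family of 49, of which 34 had rows and 23 a mean of at least 50. Against Acute-7d, T_Dysf had 2 of the 34 called higher and 5 lower (2.54% and 3.03% of all genes), with a median log2 fold change of -0.32 beside 0 over all genes. Higher were *Nr4a1* and *Nr4a2*, which are induced by T cell receptor signals. The related *Nr4a3* was not called, at 277 to 409 in T_Dysf, 257 to 296 in Acute-7d and 499 to 1565 in Effector. *Nr4a2* was at 1368 and 1282 normalized counts in T_Dysf cells, 185 and 121 in Acute-7d, 165 and 73.4 in Acute-2d, and 348 and 512 in Effector. Lower beside *Rxra*, *Rora* and *Nr3c1* were both thyroid hormone receptor genes. *Thra* was at 212 and 257 in T_Dysf, 791 and 605 in Acute-7d, 1100 and 1314 in Acute-2d, and 269 and 218 in Effector (log2 fold change of T_Dysf against Acute-7d -1.56, adjusted p = 0.0176). *Thrb* was at 65.6 and 55.2 in T_Dysf and 170 and 179 in Acute-7d (-1.52, adjusted p = 0.0128). *Thra* and *Nr1d1* lie on opposite strands of chromosome 11 with overlapping ends, so reads there cannot be assigned without strand.

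Against Acute-2d, T_Dysf had 1 family gene higher (*Nr4a2*) and 6 lower (3.14% and 4.21% of all genes), *Nr1d1* and *Pgr* among them. Against Effector it had 2 higher and 0 lower (4.47% and 4.75% of all genes), and 12 of the 34 had an unadjusted p under 0.05 in the same limma fit. The 2 called higher were *Rarg*, a second retinoic acid receptor gene, and *Nr2f6*, an orphan receptor gene. *Rarg* was at 424 and 467 in T_Dysf and 216 and 228 in Effector (log2 fold change 1.003, adjusted p = 0.0169). *Nr2f6* was at 499 and 618 in T_Dysf and 209 and 105 in Effector (log2 fold change 1.90, adjusted p = 0.0377). Effector had 1 of the 34 higher than Acute-7d and 0 higher than Acute-2d (4.18% and 4.31% of all genes). The 1 was *Nr4a1*, at 380 to 649 in Effector and 529 to 742 in T_Dysf. Effector had 8 of the 34 lower than Acute-7d and 8 lower than Acute-2d, beside 3.88% and 4.48% of all genes called lower. The medians were -0.53 and -0.65. Without the 5 receptors described above, 6 of the other 29 were lower in each of these comparisons. Among them *Pgr*, the progesterone receptor gene, was at 1.83 and 0 in Effector, 12.9 and 7.12 in T_Dysf, 41.3 and 124 in Acute-7d, and 220 and 181 in Acute-2d. Of 10 coregulator genes of nuclear receptors, *Ppargc1b* alone was called lower in T_Dysf against Acute-7d, beside 3.03% of all genes. It was at 138 and 124 against 354 and 261 (adjusted p = 0.0370).

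**Figure D4:**
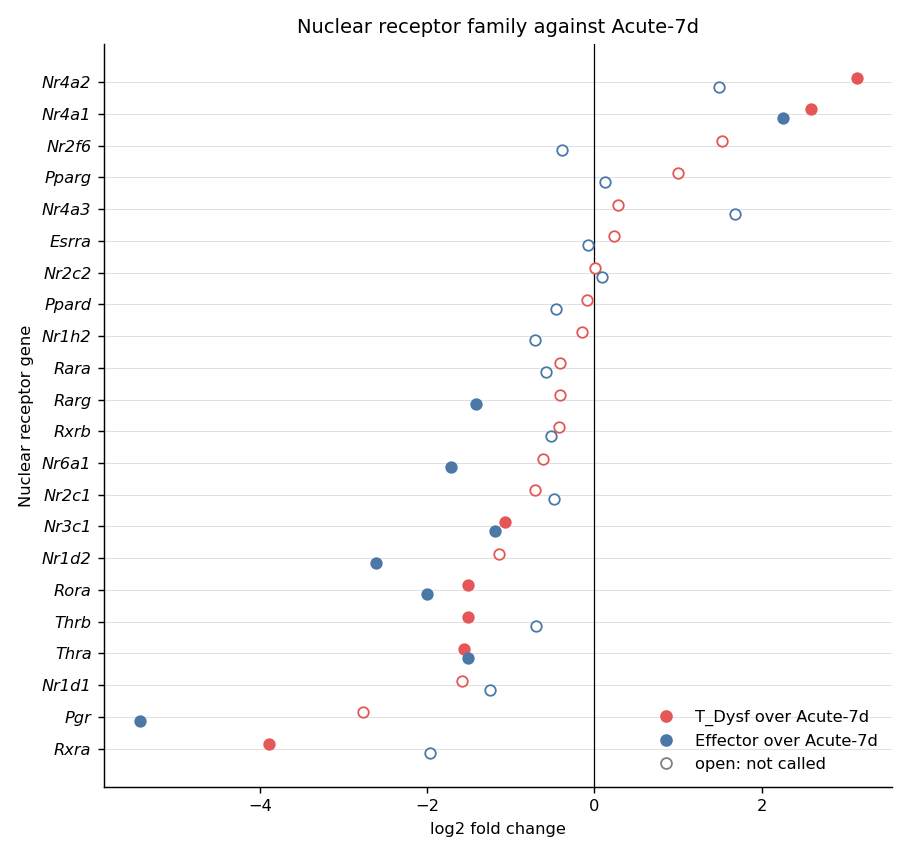
Log2 fold change (horizontal axis) of 22 of the 23 nuclear receptor genes with a mean of at least 50 normalized counts (vertical axis), for T_Dysf and for Effector over the same Acute-7d libraries, with filled points for called genes. *Nr4a2* and *Nr4a1* stand at the top and *Rxra* at the bottom for T_Dysf, and *Pgr* has the lowest value for Effector at -5.44.

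Genes with the most similar pattern were taken by Pearson correlation of log2 values over the 8 libraries among 12028 genes with a mean of at least 50. The values describe 4 conditions with 2 libraries each and carry no test. *Ahrr* was nearest to *Ss18* (r = 0.996), *Ift52* and *Tiprl*, although their changes were small: *Ss18* averaged 3247 in T_Dysf and 2282 to 2445 in the other conditions. *Ahr* was nearest to *Map3k13* (0.964) and *Arid5a* (0.955), *Tiparp* to *B4galt3* (0.996) and *2510009E07Rik* (0.988), and *Rara* to the glucose transporter gene *Slc2a1* (0.987). *Slc2a1* averaged 1355 in Effector, 1760 in T_Dysf, 3285 in Acute-7d and 4975 in Acute-2d, which is the order of *Rara*. *Rora* was nearest to the phosphodiesterase gene *Pde4d* (0.991), *Nr3c1* to *Atf7* (0.977), and *Rxra* to *Als2cl* (0.980) and the lymphotoxin gene *Ltb* (0.977). *Ltb* averaged 5961 in T_Dysf, 10111 in Effector, and 17307 and 18157 in Acute-7d and Acute-2d.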

How the data were processed

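RNA-Seq was made from polyA RNA of sorted P14 CD8 T cells in 8 libraries. Per the study's methods and processing notes, the authors mapped the reads to mm10 using STAR, counted them over RefSeq transcripts in Partek Flow, and scaled the counts with DESeq2 (median ratio). The deposited values are therefore a signal on a continuous scale (normalized counts). Of positive values under 1000 estimated reads, only 57.9% to 77.9% per library were whole reads within 0.05. Whole reads were therefore not recovered and no count model was fitted. The named filter on features with a maximum under 50 had not been applied to the table, so low genes are included.

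limma 3.58.1 (R 4.3.3; lmFit, eBayes with trend) was fitted to log2(normalized count + 1) of all 24303 genes and 8 libraries with 4 group means, which leaves 4 residual degrees of freedom. Fold changes are on that scale, which understates changes of low genes. Tests were two-sided with Benjamini-Hochberg adjustment within each of 6 comparisons, and intervals are 95%. The labels call the libraries biological replicates. The procedure was tested on simulated data.

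The members and gene lists were chosen with earlier results of these data known. All members are named. Of a list, called genes (at most 5 per comparison by size of change) and genes of high mean are named. *Sgk1*, *Tsc22d3* and *Nr4a3* were named after their values were seen. Pattern neighbours are the 3 best correlated genes of at least 50 mean normalized counts. Levels per kb used GENCODE vM21 exon lengths (GRCm38). CD4 T cell, myeloid and dendritic cell markers summed to 1057 to 1636, 263 to 648 and 114 to 567 normalized counts per library. Alternatives were other pseudocounts (0.1 and 10), filters, scalings, thresholds, a fit of the 2 groups compared, a replicate block, a RESUB term, and leaving out each library. They were examined for the members alone, so calls of the other list genes were not checked in them. Results for a few genes of the lists are not reported here.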

Additional observations from a re-analysis of the deposited data

How the results depend on the processing

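Of 570 values of single genes under settings that kept every library, 526 kept their direction and side of the threshold, 25 lost and 14 gained it, and 5 reversed. Leaving out a library gave 384 values, of which 310 were kept, 56 lost, 3 gained and 15 reversed. None of the reversed values was of a called difference. *Vdr* in Effector against Acute-2d, at -0.00256, became 0.00181 with a pseudocount of 10, 0.014 with equal totals and 0.208 with quantile normalization. With a term for the RESUB libraries, *Ahrr* in Acute-7d against Acute-2d became 0.24 and *Vdr* in Effector against Acute-7d -0.19.

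The number of the 8 genes called fell for T_Dysf against Acute-7d from 4 to 1 in a fit of the 2 groups compared, to 1 with the replicate block and to 1 with the RESUB term. For T_Dysf against Acute-2d it went from 3 to 1 with the 2 groups and to 5 with no fold change limit. For T_Dysf against Effector it went from 2 to 1 with a pseudocount of 0.1, to 1 with the replicate block and to 1 with the RESUB term. For Effector against Acute-7d it went from 3 to 1 with the 2 groups, and against Acute-2d from 3 to 0 with the 2 groups and to 1 with the RESUB term. The 2-group fits have fewer libraries to estimate the spread, and the RESUB term leaves 1 effective Acute-7d library against T_Dysf; for the pseudocount and the block the cause was not tested. Libraries share only a replicate number: correlations of replicate differences were -0.199 to 0.197 over 6 pairs of conditions, 2 of them over 0.1. With the replicate block the 3 *Ahrr* calls of T_Dysf and its *Rora* and *Nr3c1* calls against Acute-7d were lost, at adjusted p of 0.0574 to 0.0681. The block moved no other count of called genes by over 1.5 times.

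With each library left out in turn, called genes ranged from 0 to 4 for T_Dysf against Acute-7d, 0 to 2 against Acute-2d and 0 to 2 against Effector, and from 0 to 3 and 1 to 3 for Effector against Acute-7d and Acute-2d. Log2 fold changes that reversed ranged as follows. In Acute-7d against Acute-2d, *Ahr* lay at -1.81 to 0.52, *Ahrr* at -2.50 to 0.24, *Tiparp* at -0.52 to 0.046, *Vdr* at -0.46 to 0.19 and *Nr3c1* at -0.020 to 0.46. In T_Dysf, *Ahr* against Acute-2d lay at -0.50 to 1.83 and *Tiparp* against Acute-7d at -0.16 to 0.40. In Effector against Acute-7d, *Ahrr* lay at -0.071 to 2.67 and *Vdr* at -0.22 to 0.50. In Effector against Acute-2d, *Ahrr* lay at -0.32 to 0.65 and *Vdr* at -0.36 to 0.36.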
